A study of Mus musculus with 3 samples.

Results

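In LSK cells, CTCF peaks were found at a few beta and gamma genes of the clustered protocadherins and at no alpha gene. Within 1 kb of the start site, 8.77% of the clustered protocadherins had a peak, against 8.59% of all protein-coding genes. The 95% intervals of the alpha, beta and gamma shares overlapped, so the subclusters could not be told apart by this count. The peaks among the genes were weaker than the median peak of the library, and peaks were densest in the flank that follows the genes. The 57 clustered protocadherins are the protein-coding genes of GENCODE M21 on chromosome 18 whose symbols begin with Pcdha (14 genes), Pcdhb (22) or Pcdhg (21), out of 21755 protein-coding genes on chromosomes 1 to 19 and X. Their span, from the Pcdha1 start to the end of the gamma cluster, covers chromosome 18 from 36930184 to 37841873 in mm10 (GRCm38), and every member lies on the plus strand. Of 18945 CTCF peaks in the library, 20 had their midpoint in this span or within 200 kb of it, and 7 of these lay inside the span. LSK cells are adult bone marrow cells of C57BL6 mice that lack lineage markers and carry Sca1 and cKit, among which are hematopoietic stem cells and multipotent progenitors. A single CTCF ChIP-seq library was available, from a Millipore antibody, so no value below has a replicate and no test was made. Intervals are 95% intervals that cover counting error only. An LSK input and an input of megakaryocyte erythroid progenitors belong to the same series and were not analyzed here. Without expression or an input signal, the label LSK could not be checked against marker genes.

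CTCF is a zinc finger protein that binds a long, oriented DNA motif and halts the extrusion of chromatin loops by cohesin. The clustered protocadherins are cadherin-like cell surface proteins, best known in neurons, where each cell expresses its own combination of isoforms and uses it to tell its own branches from those of other cells. In the alpha and gamma clusters, many variable first exons, each with its own promoter and each coding for the whole extracellular part, transmembrane segment and proximal cytoplasmic part, are spliced to 3 constant exons shared by the cluster. The beta genes consist of a single coding exon and have no constant exons. In neurons, CTCF and cohesin at the variable exons and at distal enhancers are known to take part in the choice of promoters. In blood cells these genes serve here as a tandem array of related promoters outside the tissue in which they are best known.

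The peaks fell unevenly over the window. The 5′ flank of 200 kb held 2 peaks, the alpha cluster none, the beta cluster 3, the interval between beta and gamma 1, the gamma cluster 3, and the 3′ flank of 200 kb held 11. Over the whole member span the density was 7.68 peaks per Mb (3.09 to 15.8), which was 98.4% (39.6% to 203%) of the autosomal density of 7.80 per Mb, and chromosome 18 as a whole had 6.07 per Mb. The density of the span was thus near that of the genome. The 3′ flank, which holds Diaph1, Hdac3, Rell2, Fchsd1 and Arap3, had 55.0 peaks per Mb (27.5 to 98.4), or 705% (352% to 1261%) of the autosomal density. The interval of this flank did not overlap that of the member span.

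**Figure D1:**
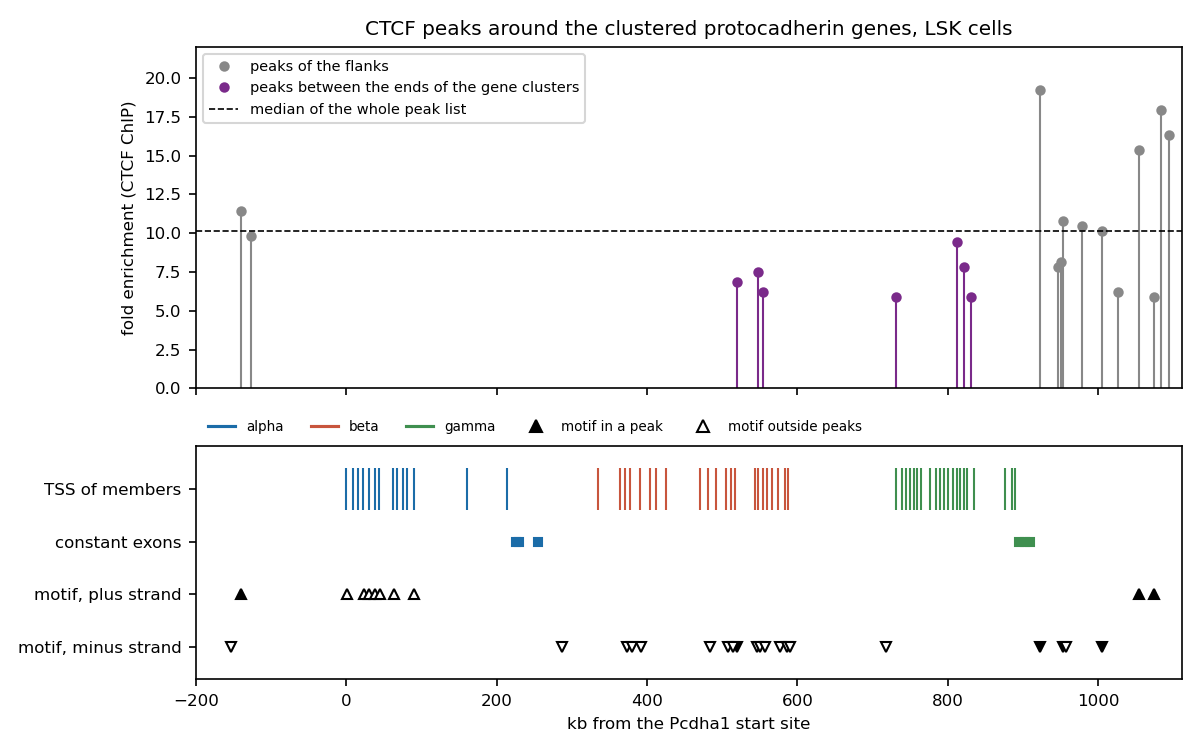
CTCF peaks of LSK cells along the protocadherin window, in kb from the Pcdha1 start site (x axis), with fold enrichment (y axis, upper panel) and, in the lower panel, the start sites of the 57 members, the constant exons and the CTCF core motif sites without a mismatch. Each stem is 1 peak of a single library. The 7 peaks inside the span lie between 5.87 and 9.46, all below the list median of 10.12, and the alpha cluster has 7 plus-strand motif sites and no peak.

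The 14 alpha genes had no peak anywhere in their cluster. The variable part, from Pcdha1 to the first exon of Pcdhac2, measures 216 kb, over which the autosomal density would give 1.69 peaks. A count of 0 there allows up to 13.9 peaks per Mb, taking 3 counts as the limit, so a density at the genome's level cannot be told from absence over this length. The part with the 3 constant exons, from 37146531 to 37187661, also held none. Nor did the interval of 77.3 kb between the alpha and beta clusters. The nearest peak to Pcdha1, the first alternate alpha gene, was 126753 bp upstream, between Zmat2 and Pcdha1. The nearest to Pcdhac2, the last of the C-type alpha genes, was 306186 bp away in the beta cluster. The median distance over the alpha genes was 179656 bp, against 24222 bp over all protein-coding genes. Every alpha gene but Pcdhac2 had the same upstream peak as its nearest, so these distances are not independent. No alpha start site was within 50 kb of a peak.

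The peak-free stretch that holds the alpha cluster ran on into the beta cluster. From 36803432 to 37449688, 646 kb lay between neighbouring peaks, and the start sites of 28 members, the 14 alpha genes and Pcdhb1 to Pcdhb14, lay in it. By length this gap ranked 673 of 18925 gaps between peaks, and 24 of 530 on chromosome 18. The median gap was 43.2 kb over chromosomes 1 to 19 and X and 63.4 kb on chromosome 18, and 915 gaps were of 500 kb or more, 31 of them on chromosome 18. By the number of protein-coding start sites it ranked 1 on chromosome 18 and 23 in all, with 31 start sites. These include 3 read-through records, Gm42416, Gm37013 and Gm37388, which begin among the alpha exons and end in the gamma cluster. The gap also held 14 sites of the CTCF core motif, the most of any gap on chromosome 18, and it ranked 32 of all gaps by this count.

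**Figure D2:**
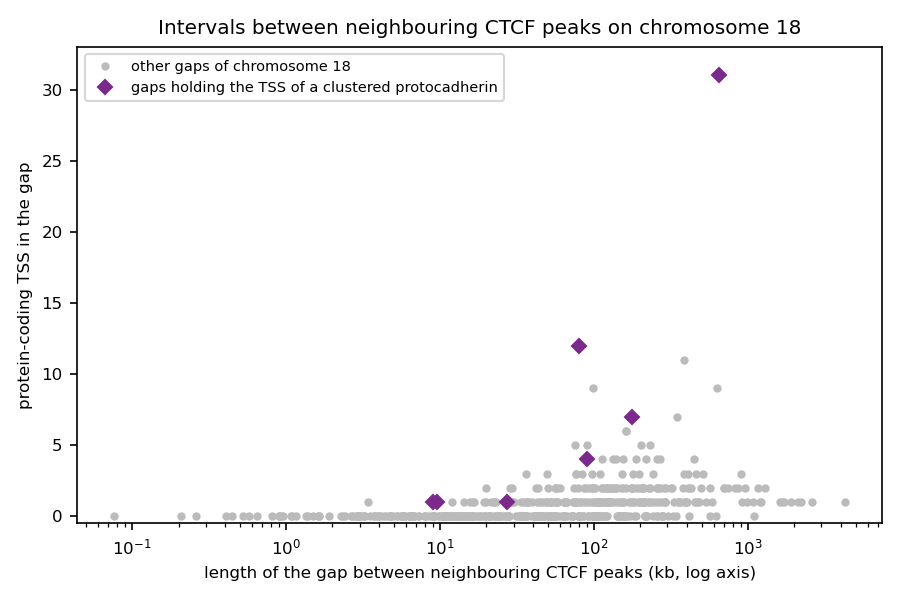
Intervals between neighbouring CTCF peaks on chromosome 18, with length in kb (x axis, log scale) and the number of protein-coding start sites inside (y axis). Diamonds are the 7 gaps that hold a clustered protocadherin start site, and the highest of them, with 31 start sites over 646 kb, is far above the other gaps.

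In the beta cluster, 3 peaks were found among 22 genes, all in its later part. The cluster measures 260 kb, giving 11.6 peaks per Mb (2.38 to 33.8). The first, from 37449689 to 37450282, lay within the single exon of Pcdhb14, its midpoint 2330 bp after the start site, enriched 6.85-fold (ChIP reads over the background set by the peak caller) at a −log10 p-value of 5.11. This was the only peak of the span that held the CTCF core motif without a mismatch. The second, from 37477361 to 37478102, covered the start site of Pcdhb16 and was enriched 7.50-fold, at a −log10 p-value of 6.84. The third, from 37484625 to 37485218, covered the start site of the next gene, Pcdhb17, and was enriched 6.20-fold at the same −log10 p-value as the first. These latter 2 peaks lay over neighbouring promoters, with midpoints 82 bp before and 127 bp after the respective start sites. The other beta genes had no peak over the promoter. Pcdhb1 was the farthest from a peak at 184751 bp, and the distances fell along the cluster to 2033 bp at Pcdhb14 and rose again after Pcdhb17 to 32653 bp at Pcdhb22.

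The gamma cluster showed the same placement at promoters. One peak, from 37661323 to 37661907, covered the start site of Pcdhga1, the first gene of the cluster, its midpoint 178 bp before it, and was enriched 5.87-fold at a −log10 p-value of 5.23. It also lay over the end of the noncoding record 3222401L13Rik. Then 79.8 kb without a peak followed, with the start sites of 12 gamma genes, a number exceeded on chromosome 18 only by the gap of the alpha and early beta genes.

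A run of 3 peaks came next, at successive genes of the B type. The peak over the Pcdhgb6 start site, from 37741678 to 37742252, was enriched 9.46-fold (−log10 p-value 8.19), and was by this measure the strongest of the span. The peak over the Pcdhgb7 start site, from 37751185 to 37751840, was enriched 7.83-fold (8.69). The peak from 37761321 to 37761874 was enriched 5.87-fold (5.68) and covered the start site of Pcdhgb8, which GENCODE M21 lists as a polymorphic pseudogene and which is therefore not among the 57 members. Pcdhga10, whose start site lies between those of Pcdhgb6 and Pcdhgb7, and Pcdhga11, between those of Pcdhgb7 and Pcdhgb8, had no peak over their promoters, at 4192 bp and 3891 bp from the nearest one. The A-type genes on either side of these 5 neighbours, Pcdhga9 and Pcdhga12, also had none, at 4742 bp and 3706 bp from a peak. The alternation of B-type genes with a peak and A-type genes without one held from Pcdhga9 to Pcdhga12 only. The earlier Pcdhgb1, Pcdhgb2, Pcdhgb4 and Pcdhgb5 were 10669 to 27921 bp from a peak, and Pcdhga1 had one.

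The C-type gamma genes and the gamma constant exons had none. Pcdhgc3 was the gamma gene farthest from a peak, at 44490 bp. The last 90.1 kb from the Pcdhgb8 peak to the first peak of the 3′ flank held the start sites of Pcdhga12, Pcdhgc3, Pcdhgc4 and Pcdhgc5 and the 3 constant exons, from 37825021 to 37841873. Both sets of constant ends were thus without a peak. The gamma constant part is only 19.7 kb long, where the autosomal density would give 0.154 peaks.

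Counted over genes, 5 of the 57 members had a peak within 1 kb of the start site, or 8.77% (3.81% to 18.9%, Wilson). Over all protein-coding genes the share was 8.59%, so the members stood at the background. By subcluster the counts were 0 of 14 alpha genes, 2 of 22 beta genes (Pcdhb16 and Pcdhb17) and 3 of 21 gamma genes (Pcdhga1, Pcdhgb6 and Pcdhgb7), and the Wilson interval of the alpha share (up to 21.5%) overlapped those of beta (2.53% to 27.8%) and gamma (4.98% to 34.6%). Within 10 kb there were 14 members, 24.6% (15.2% to 37.1%), against 29.3% of all protein-coding genes. These 14 start sites shared 7 peaks, so the genes are not independent observations. A peak over the variable exon was found in 6 members (10.5%), the same 5 and Pcdhb14. Of all protein-coding genes, 4.71% had a peak over the first exon. These shares were not matched for exon length. The variable exons of the members measure 2346 bases (Pcdha5) to 8695 bases (Pcdhb14), and a longer exon can meet a peak more easily.

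**Figure D3:**
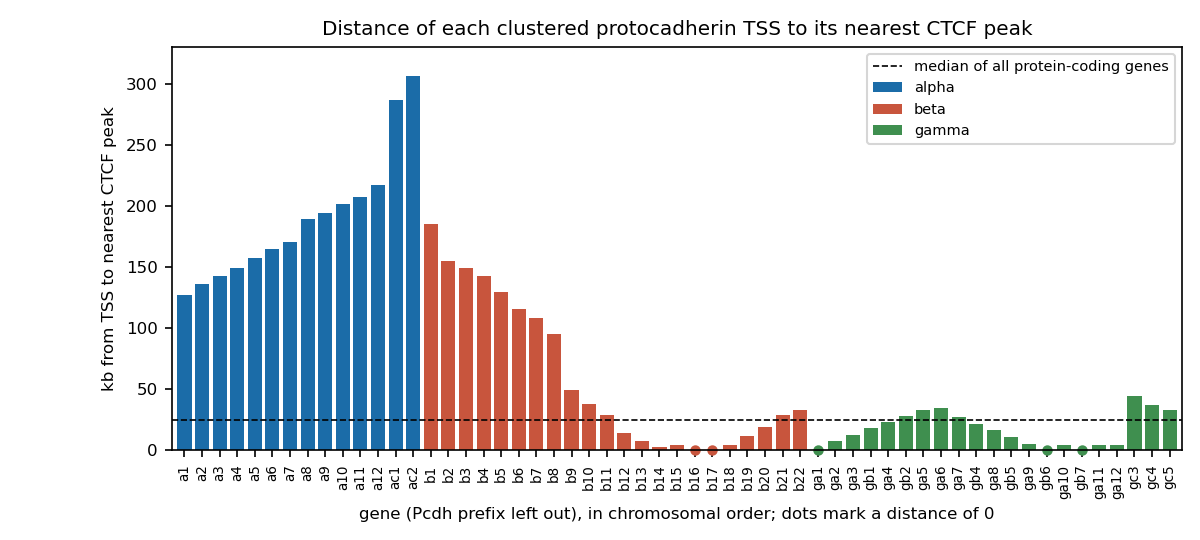
Distance from each member's start site to the nearest CTCF peak, in kb (y axis), for the 57 genes in chromosomal order (x axis). The bars are single values from 1 library, the dots mark the 5 genes whose start site a peak covers, and all 14 alpha genes lie above 126 kb while all 21 gamma genes lie below 45 kb.

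Most peaks of the span lay over promoters. Of its 7 peaks, 5 covered a protein-coding start site and 6 a start site of a gene record of any type, whereas 4.67% of all peaks (884) covered a protein-coding start site. The shares are not on equal terms, since the span holds 68.0 protein-coding start sites per Mb and the autosomes 8.68 per Mb. The midpoints of the 6 promoter peaks lay from 203 bp before to 127 bp after the start site, and 5 of the 6 lay before it. In the 3′ flank, 1 of 11 peaks covered a protein-coding start site, that of Diaph1.

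The peaks of the span were also weak. Their fold enrichments ran from 5.87 to 9.46 with a median of 6.85, and their −log10 p-values from 5.11 to 8.69, where the list begins at 5.001. The medians of the whole list were 10.12 and 12.6. None of the 7 reached the median fold enrichment of the list. None had a −log10 p-value of 10 or more either, a level reached by 63% of all peaks. Other peaks over protein-coding start sites were not as weak, since the 884 of the whole list had a median fold enrichment of 11.42 and 629 of them reached a −log10 p-value of 10. Both flanking regions held stronger peaks. In the 5′ flank the peak within Hars2, which encodes a mitochondrial histidyl-tRNA synthetase, had a fold enrichment of 11.42, and the next, past Zmat2, had 9.79. In the 3′ flank 7 of 11 peaks were at or above the median of the list, and the median of the 11, 10.44, was close to that of the list.

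**Figure D4:**
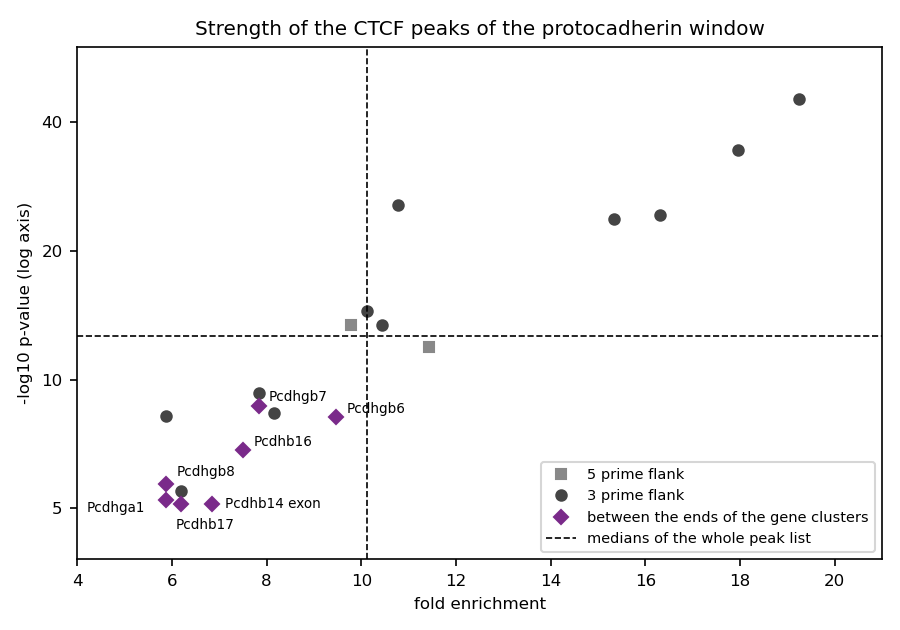
Fold enrichment (x axis) and −log10 p-value (y axis, log scale) of the 20 peaks of the window, each a single peak call. Dashed lines are the medians of the whole list, 10.12 and 12.6, and the 7 peaks between the ends of the gene clusters all lie below both.

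The strongest peak of the window stood just past the gamma cluster. It ran from 37851937 to 37852784, 10064 bp after the end of the last gamma constant exon and within an intron of Diaph1, which encodes an actin-nucleating formin and lies on the opposite strand. Its enrichment was 19.25-fold and its −log10 p-value 45.3, at percentiles 95.2 and 97.8 of the list. The nearest protein-coding start site was that of Pcdhgc5, 32424 bp away, and it was the nearest peak for Pcdhgc4 and Pcdhgc5. It held the core motif on the minus strand, 3 bp from its middle. A group of 3 further peaks followed within Diaph1. They had fold enrichments of 7.83, 8.16 and 10.77, and only the last of them, from 37883220 to 37884135, carried the core motif without a mismatch, again on the minus strand. Another peak within Diaph1 stood apart from this group, 26878 bp from the Diaph1 start site. It was enriched 10.44-fold and held the core motif only with 1 mismatch allowed. Beyond these, a peak over the Diaph1 start site had a fold enrichment of 10.12, and one lay 976 bp from the start site of Rell2 with 6.20. The 4 peaks from Arap3 outwards had 5.87 to 17.95.

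The variable exons held many CTCF core motif sites that lay outside of peaks. The motif searched is a degenerate core of 12 letters, on both strands. Without a mismatch the member span had 22 sites, 24.1 per Mb, while autosomes had 9.21 and chromosome 18 had 8.05 per Mb. Only 1 of the 22, the site in Pcdhb14, was in a peak, or 4.55% (0.807% to 21.8%, Wilson), whereas 30.3% of the 22944 sites of chromosomes 1 to 19 and X were in one. In the flanks 6 of 8 sites were in a peak, 75% (40.9% to 92.9%). The intervals of span and flanks did not overlap, but the sites in the span are copies within related exons and are not independent.

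These sites sat at the same place in one paralog after another. In the alpha cluster all 7 sites were on the plus strand, each within the variable coding exon of a different alternate gene, namely Pcdha1, Pcdha4, Pcdha5, Pcdha6, Pcdha7, Pcdha8 and Pcdha12. In 6 of them the site began 456 bases after the first coding base, and in Pcdha1 459 bases after it. None was in a peak. Allowing 1 mismatch, 9 of the 14 alpha genes had a plus-strand site 456 to 459 bases from the first coding base, Pcdha10 and Pcdha11 being added. The genes without one at this distance were Pcdha2, Pcdha3, Pcdha9 and both C-type genes, Pcdhac1 and Pcdhac2. Pcdha3 and Pcdha9 did have a plus-strand site with 1 mismatch, 447 and 546 bases from the first coding base. Counted from the last coding base, these lay at 1911 and 1923 bases. The 7 sites without a mismatch lay at 1878 to 1926 bases by that count, so the limit of 456 to 459 bases left out similar sites. A minus-strand site with 1 mismatch lay 301 to 313 bases from the first coding base in 10 alpha genes, also outside of peaks. Pcdha9 had a similar site 400 bases from the first coding base. Counted from the last coding base it lay at 2069 bases, within the 2024 to 2072 bases of the other 10.

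In the beta cluster the strand and the place were different. All 13 sites without a mismatch were on the minus strand, each within the coding exon of a different gene, 107 to 188 bases before its last coding base and 2182 to 2206 bases after its first. They lay in Pcdhb3, Pcdhb4, Pcdhb5, Pcdhb10, Pcdhb12 to Pcdhb17, Pcdhb20, Pcdhb21 and Pcdhb22. With 1 mismatch allowed, 18 of 22 beta genes had a minus-strand site within their last 300 coding bases. The single one of these sites in a peak was that of Pcdhb14. Its distance to the last coding base, 176 bases, was the same as in Pcdhb10 and Pcdhb13, whose sites were not in a peak. In Pcdhb16 and Pcdhb17 the exon site was outside of the peak, which lay over the promoter instead.

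**Figure D5:**
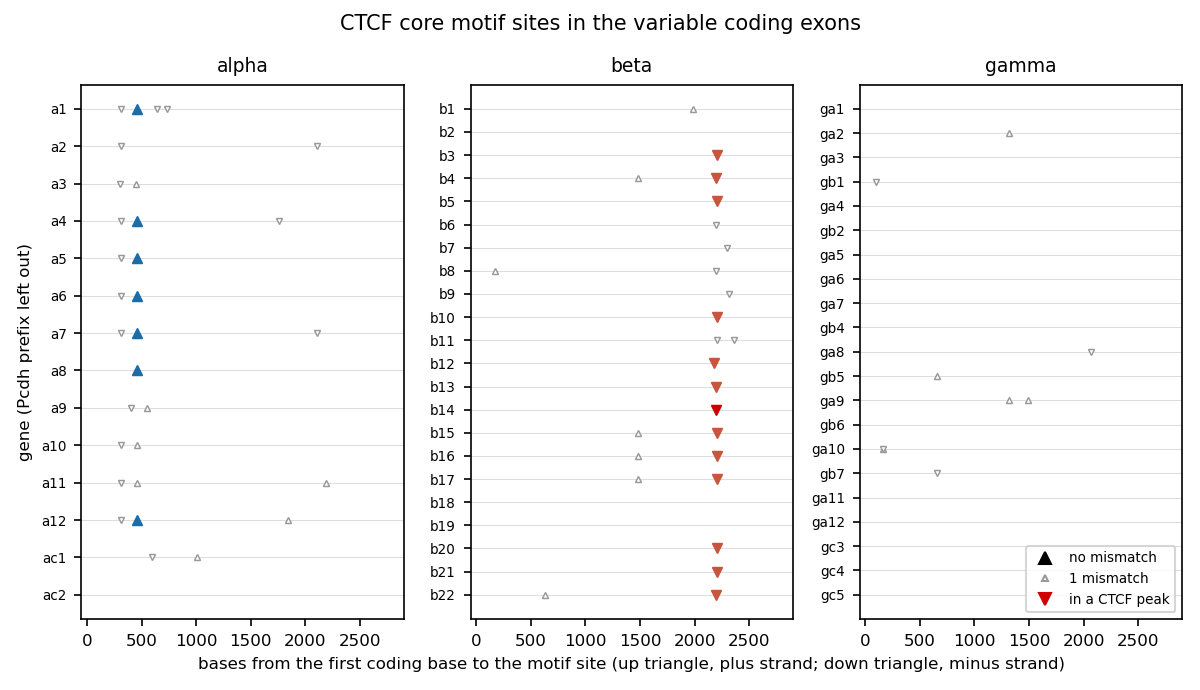
CTCF core motif sites in the variable coding exons, in bases from the first coding base (x axis), 1 row for each gene, by subcluster. Large symbols are sites without a mismatch, small grey ones sites with 1 mismatch, and the red symbol in Pcdhb14 is the only one in a CTCF peak. Without a mismatch, plus-strand sites line up at 456 to 459 bases in alpha and minus-strand sites at 2182 to 2206 in beta.

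The gamma variable exons had no site without a mismatch, and 7 of 21 gamma genes had a site in the coding exon with 1 mismatch. Most of these lay at different places, but Pcdhga2 and Pcdhga9 each had a plus-strand site 1093 bases before the last coding base. Outside the exons the span had 2 sites without a mismatch. One, on the minus strand at 37217468 to 37217479, lay 29807 bp after the end of the alpha cluster, in the interval before Pcdhb1. This interval is known to hold an enhancer of the alpha genes, but the files used here do not mark it, and no match was made. The other lay on the minus strand 13.3 kb before Pcdhga1. Neither was in a peak.

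Seen from the peaks, the motif was scarce in the span. Without a mismatch 1 of the 7 span peaks held it, and with 1 mismatch allowed 2 of 7, the second being the Pcdhgb7 peak with a plus-strand site. In the whole list 35.6% of peaks held the motif without a mismatch and 83.6% with 1 mismatch allowed. In the 3′ flank 5 and 8 of 11 peaks held it. These shares were not matched for peak strength, and no motif other than the degenerate core was searched. With 1 mismatch allowed, 2 of the 164 sites in the span were in a peak, against 4.52% of all 451247 sites.

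The promoters of the subclusters differed in sequence features that the choice of genes did not use. Windows of 2 kb around the start sites had a median GC content of 41.9% in alpha, 42.1% in beta and 45.5% in gamma, below the 51.3% of all protein-coding genes. The observed over expected CpG ratio was highest in alpha, with a median of 0.642, followed by gamma (0.513) and beta (0.330), against 0.478 over all protein-coding genes. The C-type genes Pcdhac2 and Pcdhgc3 had the highest GC contents of their subclusters, 54.9% and 53.0%, and no peak. The 5 members with a peak within 1 kb had ratios from 0.201 to 0.607, which lay inside the range of the 52 without one (0.138 to 0.821). The core motif with 1 mismatch allowed was in the 2-kb window of 20 of 57 members, 13 of them alpha genes, 1 a beta gene and 6 gamma genes, while 48.3% of all protein-coding genes had it. These counts depend on the window, which ends 1 kb after the start site. It takes in the alpha exon sites without a mismatch, which lie 456 to 581 bp after the start site. Those of beta, 2271 to 2810 bp after it, fall outside. The counts therefore do not show that alpha promoters hold more motif sites than beta genes do.

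Members of a tandem array share sequence, and a read from one gene can match another. The share of 36-base words of a 2-kb promoter window that occur elsewhere in the genome had a median of 3.92% over the members, 10.4% in alpha, 0.0254% in beta and 1.17% in gamma, and 0.204% over the other protein-coding genes of chromosome 18. The highest value was 24.3%, at Pcdha7. It was 1.07% at the median of the 5 members with a peak within 1 kb and 4.91% at the median of the 52 without. In the 300 bases around the alpha exon sites the share ran from 6.04% at Pcdha1 to 60.8% at Pcdha7, with a median of 13.6%. Around the minus-strand sites with 1 mismatch near the start of the coding sequence of 10 alpha genes it was higher, from 44.5% to 70.9%. At the similar site of Pcdha9 the share was 42.3%. Around the beta exon sites it ran from 0% at Pcdhb15 to 28.7% at Pcdhb22, with a median of 9.81%. The site in Pcdhb14 that lay in a peak, at 18.9%, was inside that range. Over the Pcdhb14 peak itself the share was 17.4%, the highest of all peaks of the window, whose median was 0%. The authors let reads with several matches count. The part of repeated sequence in the absence of alpha peaks, or in the Pcdhb14 peak, was not tested.

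Other gene families were measured in the same way. Of the 12 protein-coding non-clustered protocadherins, which are single genes with the same kind of extracellular domains, 2 had their nearest peak within 1 kb of the start site, and 5 had it within 10 kb. Pcdh1, on the same chromosome beyond the 3′ flank, had one at 396 bp with a fold enrichment of 19.58, and Pcdh15 one at 751 bp with 7.50. Among 39 Hox genes, which like the protocadherins lie in arrays, 5 had one within 1 kb, and 27 within 10 kb, the nearest being at the start site of Hoxa7 with 17.29. Among 120 Vmn2r genes, a clustered family of vomeronasal receptors, none had one within 1 kb, and 3 did within 10 kb, the nearest at Vmn2r7 (1917 bp, fold enrichment 6.96). Within 10 kb the clustered protocadherins (15.2% to 37.1%) lay below the Hox genes (53.6% to 81.4%) and above the Vmn2r genes (0.854% to 7.09%), without overlap of the Wilson intervals, and overlapped the non-clustered protocadherins (19.3% to 68.0%). The 14 protocadherins within 10 kb share 7 peaks and the 27 Hox genes 16, so their intervals are too narrow. The differences between families were not tested. Over all protein-coding genes the shares were 8.59% within 1 kb and 29.3% within 10 kb. The latter lies inside the protocadherin interval, so the clustered protocadherins were at the background. Inside the span, the unrelated genes Slc25a2 and Taf7, which lie between the beta and gamma clusters, were 22578 bp and 17119 bp from the nearest peak, the one at Pcdhga1.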

How the data were processed

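CTCF ChIP-seq peaks of 1 LSK library were analyzed. The authors mapped reads to mm10 with Bowtie, allowing reads with several matches, and called peaks with MACS. The settings of MACS and its control are, in the sources used here, not given. The deposited list gives the fold enrichment as a ratio, the −log10 p-value, and a q-value (false discovery rate) of unstated scale, which was not used. Sequencing depth was not derived from the list, so peak strength cannot be set against depth.

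Positions are 1-based on mm10, with genes from GENCODE M21. Where it gives the symbol Pcdha11 to a pair of records, the one that RefSeq names Pcdha10 is called so here. A start site (TSS) is the 5′ end of the gene record, and a peak belongs to the segment of its midpoint. Values were computed with numpy 2.4.6, pandas 2.3.3 and scipy 1.17.1 under Python 3.11.15. Repeated words were exact matches on either strand. The motif search was tested on simulated data. Named genes were all members with a peak within 1 kb or over the variable exon, the nearest and farthest of each subcluster, and the nearest genes of the peaks; genes named for a motif site were chosen after their values were seen. The members, families and motif were chosen with earlier results of these data known.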

Additional observations from a re-analysis of the deposited data

How the results depend on the processing

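The threshold on peaks changed most. With a −log10 p-value of at least 10, the window kept 9 of 20 peaks, the span 0 of 7 (density 0% of autosomes in place of 98.4%), 0 in place of 5 members had a peak within 1 kb, and 0 in place of 1 motif site of the span was in a peak. At or above the median fold enrichment, 8 peaks were left in the window and 0 in the span. Flanks of 100 kb gave 13 peaks in the window. Per core motif site, the peak density of the span was 37.6% of that of autosomes. Members with a peak numbered 12 within 5 kb, 14 within 10 kb and 35 within 50 kb. Asking for the peak's midpoint in the variable exon left 2 exons in place of 6. With 1 mismatch, 11 in place of 7 window peaks held the motif and 2 in place of 1 span sites were in a peak. With 50-base words, the median repeated share of member promoters was 1.18% in place of 3.92%. Merging neighbouring peaks, using every transcript start or the first exon of any transcript, and searching the central 200 bp for the motif changed none of the counts tried. Counting start sites of gene records of any type, chosen after seeing the data, gave 6 in place of 5. No paired analysis was possible because a single library has a peak list. All 7 span peaks have −log10 p-values in the lowest 29.2% of the list, and depth was not varied. The absence of a peak does not show the absence of CTCF.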
